A study of Mus musculus with 6 samples.

Results

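The 81 protein-coding genes described here carry symbols of proteins of the cytosolic ribosome, which does not show that each protein is part of the mature ribosome. They were chosen by symbol alone, as the Rpl, Rplp, Rps and Rpsa genes of the GENCODE M21 annotation of mouse, and the rule uses no measured value. They are 81 of the 31319 genes in the files, with 49 genes named for the large (60S) subunit and 32 for the small (40S) subunit. They lie on 19 chromosomes, with 4 of them on the X chromosome. All 81 passed the filter on low counts, among 19046 genes tested.

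The RNA came from nuclei of organoids of the mouse jejunum. These are 3-dimensional epithelial cultures that were established from crypts of C57BL/6 mice aged 8-12 weeks. Freshly passaged crypts were grown in medium conditioned by mouse embryonic fibroblasts. These fibroblasts were either quiescent through serum deprivation (QCM, 3 samples) or senescent after X-ray or doxorubicin treatment (SCM, 3 samples), and the labels do not say which senescence treatment belongs to which SCM sample. The organoids were frozen, nuclei were released in a detergent buffer, and 3′ ends were counted as unique molecular identifiers (UMIs), to ask how the secretions of senescent cells act on the epithelium. The statistical methods of the study count a replicate as a mouse unless stated otherwise, but the labels do not say for these samples whether replicates came from separate cultures or animals, so p-values measure the spread between these samples, which may be technical.

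The files held 38154 nuclei in 15 numbered clusters, and samples differed in depth. Totals ran from 4071926 UMIs in SCM replicate 1, with 430 nuclei, to 41035733 UMIs in QCM replicate 1, with 3791 nuclei. SCM replicate 1 shared 175 cell barcodes with QCM replicate 1, which was 40.7% of its 430 nuclei, and 40 of the shared barcodes had the same cluster number in both. The other pairs of samples shared between 0 and 36 barcodes. Where SCM replicate 1 set a value, it is in many cases also given without these nuclei or without the sample. Epithelial markers were present in every sample, while marker lists of other cell types summed to no more than 5.72 CPM (counts per 1000000 UMIs) for fibroblasts, 3.31 for immune cells and 4.97 for endothelium.

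The ribosome joins amino acids into protein, and its subunits are each built from ribosomal RNA and a set of small basic proteins that are needed in about equal numbers. Their mRNAs are short, abundant and mostly cytoplasmic, and in vertebrates they start with a tract of pyrimidines (the 5′ TOP motif) through which growth signals such as mTOR control their translation. In the intestinal crypt, dividing stem and progenitor cells are known for a high demand for new ribosomes. In a preparation of nuclei, mature mRNA can come from the nucleus itself or from cytoplasm carried along with it.

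The start sites are shown because the pyrimidine tract is the sequence feature this family is known for. RefSeq promoters (GRCm38.p6) were matched for 61 of the 81 genes. A window of 30 bases, 15 on each side of the annotated start, was read on the transcribed strand, and a run of at least 8 C or T is in capitals. The windows of 6 members with such a run are followed by those of 6 members without one, and all 12 belong to genes whose values are given below.

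Rpl27a chr7:109519180-109519209 plus strand: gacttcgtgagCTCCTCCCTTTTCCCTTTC
Rps6 chr4:86857353-86857382 minus strand: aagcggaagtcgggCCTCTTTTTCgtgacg
Rps27 chr3:90213634-90213663 minus strand: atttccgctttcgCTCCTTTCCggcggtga
Rps27l chr9:66946071-66946100 plus strand: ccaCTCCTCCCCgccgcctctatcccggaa
Rpl13 chr8:123102335-123102364 plus strand: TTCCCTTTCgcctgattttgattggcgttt
Rpl13a chr7:45128731-45128760 minus strand: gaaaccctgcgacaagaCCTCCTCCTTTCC
Rpl10 chrX:74270801-74270830 plus strand: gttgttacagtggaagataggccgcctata
Rpl23 chr11:97782425-97782454 minus strand: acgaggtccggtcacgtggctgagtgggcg
Rps7 chr12:28635939-28635968 minus strand: gcttccggtttccacccacctacttccgct
Rpl7l1 chr17:46782642-46782671 minus strand: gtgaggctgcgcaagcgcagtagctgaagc
Rpl22 chr4:152325711-152325740 plus strand: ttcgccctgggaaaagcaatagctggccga
Rps4x chrX:102189377-102189406 minus strand: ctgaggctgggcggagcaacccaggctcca

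Such a run was present in 25 of the 61 members, or 41.0%, and in 11.9% of the windows of all 27025 genes. RefSeq starts lay up to 48 bases from the GENCODE starts for the windows printed, and further for some others counted, up to 3553 bases for Rps24. A missing run thus says only that these letters were not in this window. A run present is not by itself a 5′ TOP motif either, since the window holds bases on both sides of the start. In Rpl13 and Rps27l the run lies wholly before the annotated start. In the 300 bases around the start (250 before and 50 after, both strands), CCGGAAG was found in 39.3% of members and 9.08% of all genes, ATGGCGG in 16.4% and 4.13%, and TATAAA in 9.84% and 14.1%. The median GC content of these 300 bases was 58% in members and 52.7% in all genes. Where a gene had several RefSeq starts, the one nearest the GENCODE start was used for members and the first by position for other genes. The values of members and of all genes thus rest on starts picked by unlike rules. Members with and without the run had similar median log2 ratios of SCM to QCM, -1.24 for the 25 with it and -1.23 for the 36 without it. These groups follow the letters of a window and not a known 5′ TOP motif, so control through that motif was not tested.

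The summed share of the 81 genes in all UMIs was compared first. In QCM replicates 1, 2 and 3 it came to 15.2%, 5.31% and 10.99%. In SCM replicates 1, 2 and 3 it came to 4.38%, 2.77% and 7.78%. QCM replicate 1 was highest and SCM replicate 2 lowest, and the groups overlapped because SCM replicate 3 lay above QCM replicate 2. The QCM mean was 10.5% ± 4.94 and the SCM mean 4.98% ± 2.56 (SD, n = 3 each), a difference of -5.51 percentage points. The QCM mean was thus 2.11 times the SCM mean, while the highest sample was 2.85 times the lowest within QCM and 2.81 times within SCM. Without QCM replicate 1 the difference was -3.17 points, and with replicates 2 and 3 alone it was -2.88 points. Counting error was small beside this, with the widest Wilson 95% interval of a sample spanning 0.0398 points. Without the shared barcodes QCM replicate 1 had 15.1% and SCM replicate 1 had 3.95%, the latter from 255 nuclei.

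**Figure D1:**
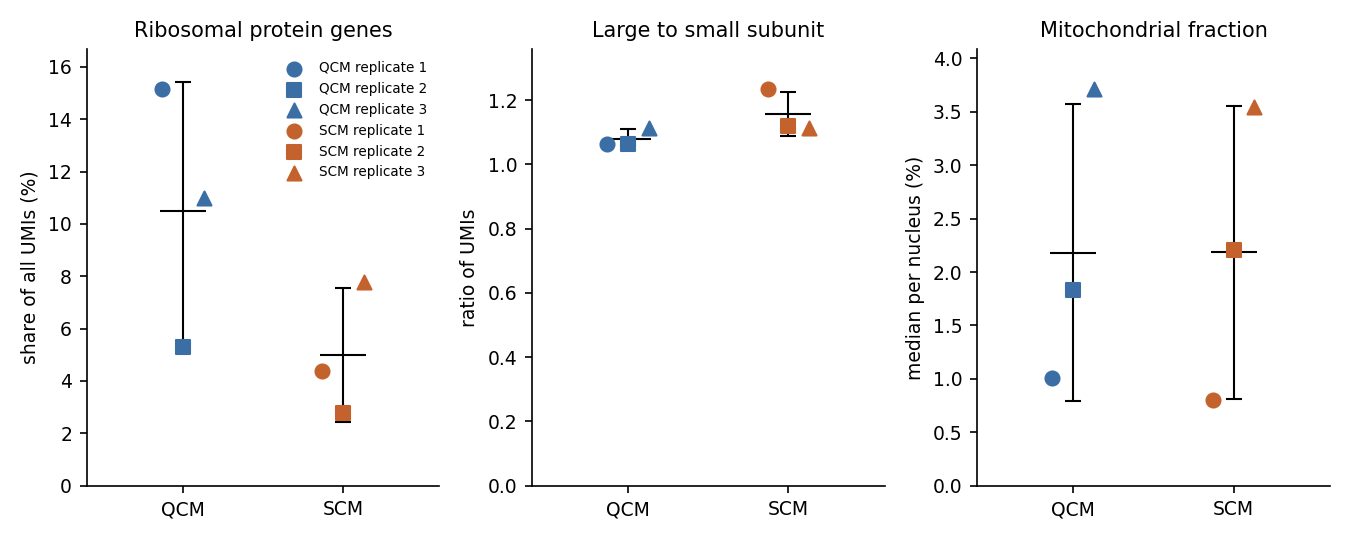
Left, percent of all UMIs on the 81 ribosomal protein genes in each sample; middle, ratio of large to small subunit UMIs; right, median mitochondrial percent per nucleus, with the mean and SD of each medium (n = 3) as lines. On the left, QCM samples lie at 5.31% to 15.2% and SCM samples at 2.77% to 7.78%, so the ranges overlap, and on the right the means of both media are 2.18%.

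The median nucleus held 18.6%, 6.10% and 11.2% ribosomal protein UMIs in QCM and 7.37%, 2.90% and 8.25% in SCM, in order of replicate. After each nucleus was thinned to 1000 UMIs, the shares were 17.8%, 6.23% and 11.6% in QCM and 6.89%, 3.17% and 8.52% in SCM, with 0, 490 and 1876 nuclei left out as too shallow in QCM and 106, 228 and 479 in SCM. These shares are means over nuclei, in which SCM replicate 1 lay above QCM replicate 2, as it did for the median nucleus without thinning. The order of the other samples was as in the sums. Thinning leaves the expected share of a nucleus unaltered, so these shares are not corrected for depth. They weigh nuclei equally and leave out shallow ones. A median thinned nucleus had UMIs from 65, 38 and 51 of the 81 genes in QCM and from 34.5, 23 and 46 in SCM (79, 59 and 63, and 66, 44 and 62, without thinning). In 0 nuclei were there no ribosomal protein UMIs. The order of the samples was that of the whole sums when 9 clusters were given equal weight in each sample, with 14.4%, 5.79% and 10.6% in QCM and 4.61%, 2.98% and 7.96% in SCM. In sums over nuclei, fewer nuclei of a type and less RNA per nucleus cannot be told apart.

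The mitochondrial share of UMIs, a sign of carried-over cytoplasm, had sample medians of 1.01%, 1.83% and 3.71% in QCM and 0.803%, 2.21% and 3.54% in SCM. Its group means were 2.18% ± 1.39 and 2.18% ± 1.37 (SD, n = 3 each). The samples of highest ribosomal protein share and of highest mitochondrial share were thus not the same, and the part of the mitochondrial share in the difference between media was not tested. Marker lists of epithelial types also differed between samples. The 9 enterocyte markers summed to 4515, 979 and 2144 CPM in QCM replicates 1 to 3 and to 397, 924 and 1591 CPM in SCM, with the samples in the same order as for the ribosomal protein share but for SCM replicate 1, which was lowest. The 9 fetal markers summed to 169, 83.3 and 131 CPM in QCM and to 361, 799 and 237 CPM in SCM, so that the SCM samples were higher without overlap. The 7 stem cell markers had 1812, 3097 and 1832 CPM in QCM against 2832, 3565 and 2265 CPM in SCM. The 8 goblet markers had 2017, 820.0 and 1136 CPM in QCM and 507, 841 and 654 CPM in SCM, the 7 Paneth markers 2634, 630.1 and 518 CPM and 582, 445 and 335 CPM, and the 11 enteroendocrine markers 304, 238 and 437 CPM and 107, 141 and 249 CPM. These secretory lists overlapped between the media, with QCM replicate 1 or 3 highest. The 8 tuft markers had 15.4 to 31.0 CPM in QCM and 16.2 to 24.4 CPM in SCM. None of these lists was at 0 in a sample, and their part in the result was not tested.

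The genes were then tested singly, with edgeR's quasi-likelihood test on the summed counts of each sample. It called 0 of the 81 members at an adjusted p under 0.05, beside 0% of all genes tested, and the smallest edgeR adjusted p of a member was 0.927. At an unadjusted p under 0.05 edgeR gave 19 of 81 members, all lower in SCM, beside 4.55% of all genes, or 3.08% counting only genes lower in SCM. This edgeR count turned on single libraries. It was 0 without QCM replicate 1 (beside 1.54% of all genes), 0 without SCM replicate 2 (0.813%), 1 without SCM replicate 1 (2.15%) and 5 when QCM replicate 3 was dropped (4.37%). It was 67 when QCM replicate 2 was dropped (11.8%), and again 67 when SCM replicate 3 was (6.22%). The edgeR count also moved with the settings. It was 55 with no low count filter (4.35%), 33 without the 6% of nuclei with most UMIs (4.96%) and 14 by library size alone (4.28%). With voom and quantile normalization 6 members were under 0.05 (3.44%). DESeq2 also called 0 of 81, beside 0.131% of all genes, and the smallest DESeq2 adjusted p was 0.359. Its unadjusted p was under 0.05 for 68 of 81, beside 6.44% of all genes. The estimates were lower in SCM for 81 of 81 members, against 51.4% of all genes, with a median log2 ratio of -1.24 (all genes -0.01) and a range from -1.80 to -0.27. The members share the samples, so a common shift of the libraries enters all of them, and the agreement in sign is not separate evidence from each gene. The large and small subunits had medians of -1.23 and -1.29. In the median over members, 1 library weighed heavily, with -0.74 without QCM replicate 1 and -1.80 without SCM replicate 3.

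**Figure D2:**
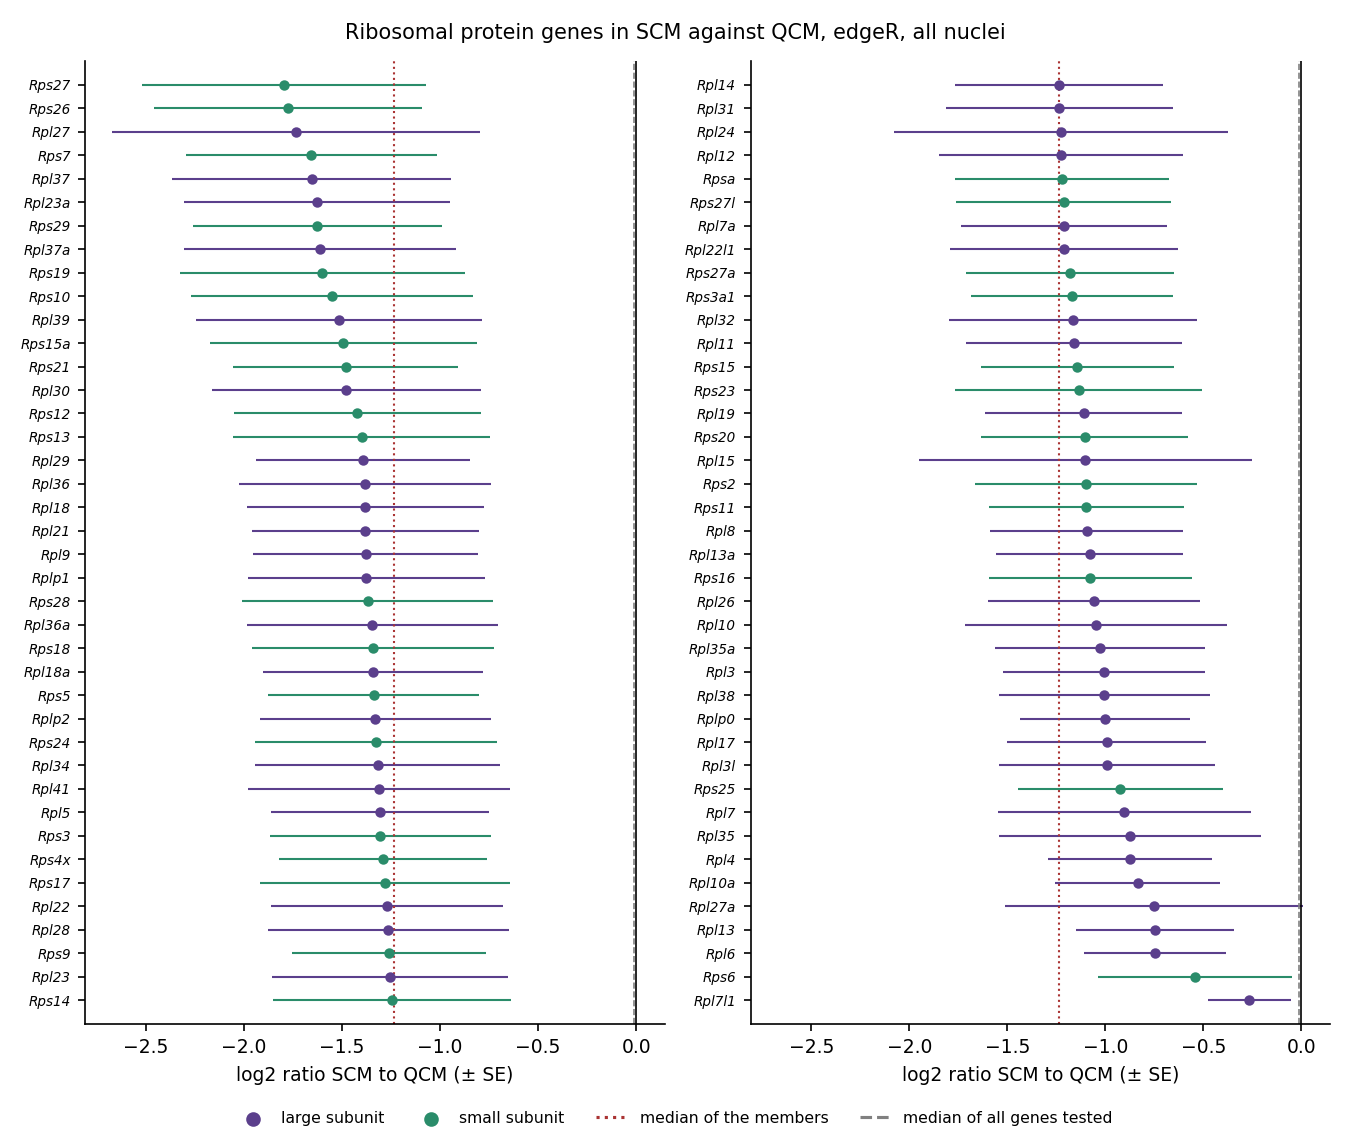
The log2 ratio of SCM to QCM for 80 of the 81 genes, ordered by value, with the subunits in different colours. Bars are standard errors derived from the edgeR log2 ratio and its F statistic. Dotted and dashed lines are at the medians of the members and of all genes tested. All estimates lie below 0, from -1.80 to -0.27, and 0 genes passed the adjusted threshold.

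The acidic stalk proteins, which recruit the elongation factors to the large subunit, included the most abundant member. Rplp1 (ENSMUSG00000007892, chr9:61913284-61914542, minus strand) had 4877, 1793 and 3723 CPM in QCM replicates 1, 2 and 3, and 1146, 797 and 2647 CPM in the SCM replicates. SCM replicate 3 exceeded QCM replicate 2, and the log2 ratio was -1.38 ± 0.60 (SE). Rplp0 (ENSMUSG00000067274, chr5:115559467-115563727, plus strand), which anchors the stalk, had 1934, 1059 and 1041 CPM in QCM and 853, 489 and 983 CPM in SCM. It was the only member whose groups did not overlap, at a log2 ratio of -1.002 ± 0.43 (SE), and it is named here after its values were seen. That 1 of 81 stood beside 2.09% of all genes that were lower in SCM without overlap, or 7.08% in either direction. Members higher in SCM without overlap numbered 0, beside 4.99% of all genes. The count of members lower in SCM without overlap was 69 when QCM replicate 2 was left out, beside 9.21% of all genes in that setting, and 53 when SCM replicate 3 was, beside 8.75%. It was 3 with SCM replicate 1 left out, beside 4.63%, and 2 with QCM replicate 3 left out, beside 4.39%.

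Of the other proteins of the large subunit, Rpl23, which lies at the face that meets the small subunit, had 4107, 1338 and 3021 CPM in QCM and 1091, 724 and 2266 CPM in SCM. Its log2 ratio was -1.26 ± 0.60 (SE). Rpl41, the smallest protein of the ribosome, had 3455, 900.0 and 3500 CPM in QCM and 736, 767 and 2115 CPM in SCM, a log2 ratio of -1.31 ± 0.67 (SE). In both genes QCM replicates 1 and 3 lay above all SCM samples, as they did in 69 of the 81 members, and QCM replicate 2 did not. Rpl37 had 3403, 577 and 3123 CPM in QCM and 804, 490 and 1322 CPM in SCM, at -1.66 ± 0.71 (SE). Rpl27 had 820, 72.3 and 407 CPM in QCM and 268, 38.5 and 167 CPM in SCM, and its -1.74 ± 0.94 (SE) was the lowest estimate of the large subunit. Rpl13 and Rpl6 had estimates nearer to 0, at -0.75 ± 0.40 and -0.75 ± 0.36 (SE). Rpl13 had 1243, 927 and 1104 CPM in QCM and 804, 384 and 1016 CPM in SCM, and Rpl6 had 999, 564 and 783 CPM and 533, 390 and 676 CPM. The reads of Rpl13 are uncertain, because the annotated gene Gm20388 on the same strand overlaps it and holds 266683 UMIs against 134009 for Rpl13.

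Among the proteins of the small subunit, Rps29, which carries a zinc-binding motif, had 4067, 833 and 3828 CPM in QCM and 949, 814 and 1512 CPM in SCM. The log2 ratio was -1.63 ± 0.64 (SE), and QCM replicate 2 lay within the SCM range. Rps26, which sits where the mRNA leaves the subunit, had 3513, 706 and 2257 CPM in QCM and 625, 401 and 1184 CPM in SCM, at -1.78 ± 0.69 (SE). Rps7 had 1815, 507 and 1056 CPM in QCM and 402, 184 and 663 CPM in SCM, at -1.66 ± 0.64 (SE). Rps6, the substrate of the S6 kinases downstream of mTOR, was a low member and among those nearest to 0. It had 387, 197 and 205 CPM in QCM and 350, 105 and 180 CPM in SCM, with a log2 ratio of -0.54 ± 0.50 (SE), which became 0.013 without QCM replicate 1 and -1.07 without SCM replicate 1.

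Several members have a paralog, and the pairs were set side by side. Rps27 had 2281, 327 and 1787 CPM in QCM and 459, 294 and 726 CPM in SCM, and its -1.80 ± 0.72 (SE) was the lowest estimate of all members. Its paralog Rps27l, a target of p53, was expressed at a lower level and had 485, 163 and 401 CPM in QCM and 118, 115 and 285 CPM in SCM, at -1.21 ± 0.55 (SE). The estimate of the p53 target was thus on the same side as those of the other members. Rpl22 had 1437, 480 and 1260 CPM in QCM and 343, 296 and 864 CPM in SCM, at -1.27 ± 0.59 (SE). Rpl22l1 had 735, 205 and 373 CPM in QCM and 216, 122 and 328 CPM in SCM, at -1.21 ± 0.58 (SE). The estimates of this pair were close, but the differences between paralogs were not tested.

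Rpl3, which reaches towards the peptidyl transferase centre, had 1526, 626 and 646 CPM in QCM and 514, 340 and 769 CPM in SCM, at -1.01 ± 0.52 (SE). Its muscle paralog Rpl3l was close to absent, with 0.48 to 1.96 CPM in any sample and 121 UMIs in all. Rpl7 had 1049, 320 and 366 CPM in QCM and 570, 152 and 387 CPM in SCM, at -0.90 ± 0.64 (SE), and 0.053 without QCM replicate 1. Rpl7l1 (chr17:46773907-46782672, minus strand), a homologue of Rpl7, was the member nearest to 0. It had 81.9, 85.5 and 61.8 CPM in QCM and 74.4, 62.7 and 77.4 CPM in SCM, at -0.27 ± 0.21 (SE), and it is overlapped on the opposite strand by Gm26904, with 21548 UMIs against 10350.

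Rpl10, Rpl39 and Rps4x completed the members with named relatives. Rpl10, which joins the large subunit late in its assembly, had 511, 548 and 513 CPM in QCM and 59.9, 223 and 549 CPM in SCM. Its QCM samples were close together at 524 ± 20.8 CPM and its SCM samples were not, at 277 ± 249 CPM (SD, n = 3 each), with a log2 ratio of -1.05 ± 0.67 (SE). Without SCM replicate 1, the lowest sample, the ratio was -0.57. Rpl39, at the exit tunnel of the growing chain, had 1649, 247 and 1145 CPM in QCM and 506, 187 and 563 CPM in SCM, at -1.51 ± 0.73 (SE). Rps4x, on the X chromosome, had 2040, 863 and 1146 CPM in QCM and 526, 367 and 1013 CPM in SCM, at -1.29 ± 0.53 (SE). Rpl13a, known for translational control by the GAIT complex, had 160, 72.5 and 100.1 CPM in QCM and 40.8, 42.9 and 96.0 CPM in SCM, at -1.08 ± 0.48 (SE).

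Ribosomal proteins outside the symbol rule were read as a check of its edges. Fau encodes a fusion of a ribosomal protein with a ubiquitin-like moiety, and Rack1 is a scaffold on the small subunit. Fau had 2037, 807 and 1852 CPM in QCM and 309, 427 and 1377 CPM in SCM, at -1.33 ± 0.66 (SE). Rack1 had 2064, 935 and 1154 CPM in QCM and 459, 438 and 1120 CPM in SCM, at -1.24 ± 0.53 (SE). Both estimates lay within the range of the members with all samples. Rpl36al had 497, 42.3 and 242 CPM in QCM and 272, 30.9 and 90.7 CPM in SCM, at -1.29 ± 0.98 (SE), and -2.32 without SCM replicate 1. The median of the 4 such genes tested was -1.26, and -0.44 without QCM replicate 1. None of these was called by edgeR or DESeq2.

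The members spanned a wide range of levels, with a median of the mean CPM of 913. Of the 81, 78 had a mean of at least 100 CPM and 32 at least 1000 CPM. No member dominated, since the highest made up 3.27% of the ribosomal protein UMIs, and the top 10 and top 20 made up 24.5% and 43.2%. Per kilobase of the longest annotated transcript, Rplp1 (5004 CPM per kb), Rps29 (4340) and Rps21 (3176) were highest, while Rpl13a (81.6), Rpl7l1 (28.4) and Rpl3l (0.689) were lowest. Since only 3′ ends were counted, the length scale is a rough guide. Across the 81 genes, transcript length had a Spearman correlation of -0.08 with the mean CPM and 0.21 with the log2 ratio, given as a description over genes, which share the same 6 libraries.

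By sample, QCM replicate 1 was the highest of the 6 for 73 members, QCM replicate 3 for 6, and QCM replicate 2 and SCM replicate 3 for 1 each. SCM replicate 2 was the lowest for 72 members and SCM replicate 1 for 6. SCM replicate 3 was above QCM replicate 2 in 77 members, so that the overlap of the groups came from the same pair of samples in nearly all members. Of the 81 members, 71 were lower in SCM in each of the 3 replicate numbers, beside 10.9% of all genes. This is a description, since the numbers were not shown to pair the samples. The other 10, which were lower in 2 numbers, were Rps3, Rps2, Rps28, Rpl38, Rpl3, Rpl17, Rpl7, Rpl10, Rpl7l1 and Rpl3l, named after their values were seen.

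The makeup of the ribosomal protein UMIs was compared next, since a common shift leaves it unaltered. The ratio of large to small subunit UMIs was 1.06, 1.06 and 1.11 in QCM and 1.24, 1.12 and 1.11 in SCM. The means were 1.08 ± 0.0297 and 1.16 ± 0.0684 (SD, n = 3 each), a difference of 0.0757 that was close to the SD in SCM. The high value came from SCM replicate 1, and without that sample the difference was 0.0362.

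The share of a member in the ribosomal protein UMIs had a median range over the 6 samples of 0.84 on the log2 scale. Ranges above 1.5 were found in 10 members, which were Rps6 of the small subunit and 9 of the large subunit, among them Rpl3l with 121 UMIs in all. SCM replicate 1 was the highest or lowest sample for each of these but Rpl7l1, and ranges without it are not given. Rpl10 made up 0.337%, 1.03% and 0.467% of the ribosomal protein UMIs in QCM replicates 1, 2 and 3, and 0.137%, 0.806% and 0.705% in SCM. Rpl35, another protein at the exit tunnel, made up 0.179%, 0.5002% and 0.601% in QCM and 0.140%, 0.777% and 0.555% in SCM. Both were low in the replicates numbered 1 of either medium. Rpl27a made up 0.557%, 0.348% and 0.507% in QCM and 1.74%, 0.440% and 0.314% in SCM. Rpl15 made up 0.456%, 0.218% and 0.309% in QCM and 1.01%, 0.199% and 0.197% in SCM, and Rps6 made up 0.256%, 0.372% and 0.186% in QCM and 0.800%, 0.379% and 0.232% in SCM. SCM replicate 1 was the highest sample for these 3 genes and the lowest for Rpl10 and Rpl35. Without the shared barcodes, SCM replicate 1 had 0.140% for Rpl10, 0.132% for Rpl35, 1.76% for Rpl27a, 0.994% for Rpl15 and 0.827% for Rps6, close to the values with all nuclei.

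**Figure D3:**
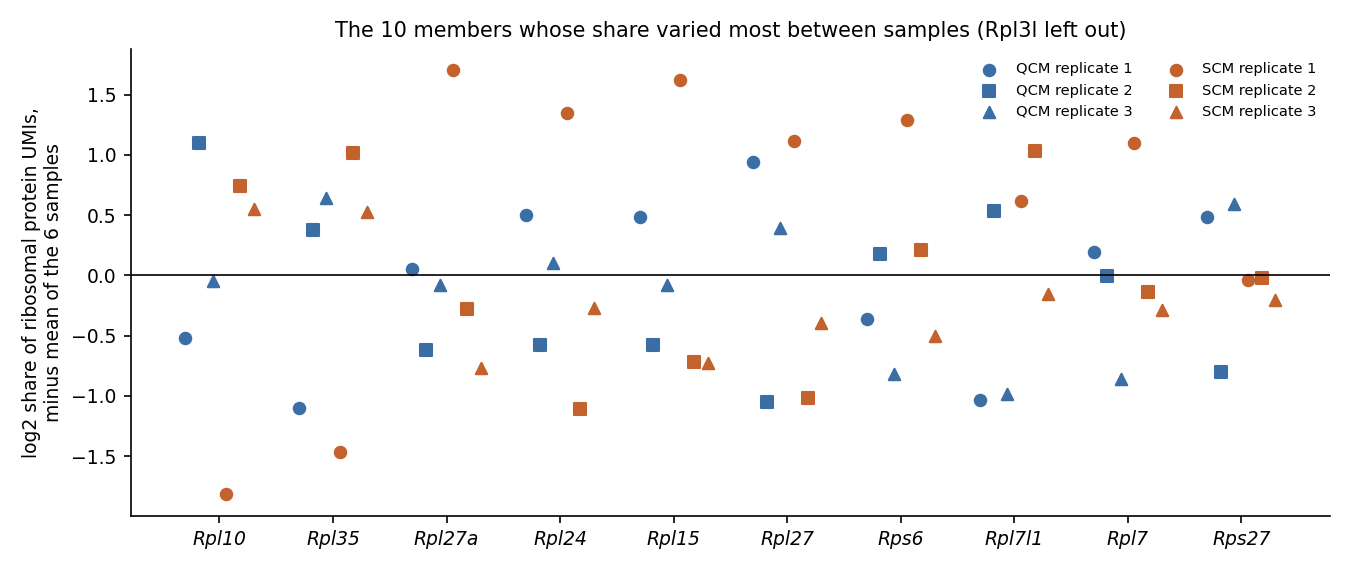
Log2 share of the ribosomal protein UMIs, minus its mean over the 6 samples, for the 10 members whose share varied most between samples (Rpl3l left out), with 1 point per sample. SCM replicate 1 stands lowest for Rpl10 and Rpl35 and highest for Rpl27a, Rpl15 and Rps6.

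In CPM, the same genes gave estimates with wide errors between the media. Rpl35 had 272, 266 and 660 CPM in QCM and 61.2, 215 and 432 CPM in SCM, at -0.88 ± 0.67 (SE). Rpl27a had 843, 185 and 557 CPM in QCM and 763, 122 and 244 CPM in SCM, at -0.75 ± 0.76 (SE). Rpl15 had 691, 116 and 340 CPM in QCM and 441, 54.9 and 153 CPM in SCM, at -1.10 ± 0.85 (SE). The ratios turned on SCM replicate 1, and without it they were -0.42 for Rpl35, -1.73 for Rpl27a and -2.09 for Rpl15. In edgeR with all samples, 0 of these 3 genes were called.

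The length of the longest annotated transcript was tried as a grouping of the members. That transcript need not be the one expressed. The 27 shortest (383 to 930 bases) made up 37.5%, 30.8% and 41.5% of the ribosomal protein UMIs in QCM and 34.8%, 35.8% and 35.0% in SCM. The QCM samples differed more among themselves than the media did. The median log2 ratios were -1.35 for the shortest, -1.21 for the 27 of 937 to 1358 bases and -1.23 for the 27 of 1375 to 5179 bases.

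Across the 15 deposited clusters, the share was highest in cluster 1 and lowest in cluster 14. Clusters are described by number with their markers, and their shares are descriptions, since these genes may have entered the clustering. The samples fill the clusters unequally and differ in their own share, so each cluster is given by the mean over the 6 samples, with each sample at equal weight, and by the share pooled over all its nuclei. Ribosomal protein genes held a mean of 11.8% of the UMIs in cluster 1 (16.3% pooled), in which 6 of 9 enterocyte, 3 of 8 goblet and 3 of 7 Paneth markers were raised (2-fold or more over the remaining nuclei, at 5 CPM or more). Cluster 4 had 10.07% (13.3% pooled), cluster 13 had 10.05% (12.9% pooled) and cluster 12 had 9.27% (10.96% pooled), and fewer than 3 markers of any list were raised in each of these. The means of cluster 10 (6 of 11 enteroendocrine markers), cluster 3 and cluster 11 (7 of 8 tuft markers) were 8.32%, 8.13% and 7.98%, with 9.48%, 9.90% and 9.64% pooled. Markers were read once per cluster and not by sample. QCM replicate 1, with 1639 of the 8110 nuclei of cluster 1, was also the highest sample for the enterocyte, goblet and Paneth lists.

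The remaining means were lower and closer together. Cluster 7, with 8 of 9 fetal markers, had 7.38%, cluster 5 had 7.02%, cluster 6 (7 of 8 goblet and 3 of 7 Paneth markers) had 6.74% and cluster 9 (11 of 11 enteroendocrine markers) had 6.41%. Clusters 0, 8 and 2 had 6.23%, 6.20% and 5.84%, of which cluster 8 had 7 of 9 enterocyte markers. The order of clusters 7 and 8 turned with the weighting, since pooled shares were 6.44% and 8.16%. Inside samples, cluster 7 was above cluster 8 in 5 of 6, with 14.03%, 6.06% and 9.98% against 11.1%, 4.89% and 8.89% in QCM and 5.28%, 2.64% and 6.30% against 3.42%, 1.91% and 7.05% in SCM. Pooled shares of clusters 5, 6, 9, 2 and 0 were 7.97%, 7.44%, 7.597%, 6.89% and 6.26%. Cluster 14 had a mean of 3.58% and 3.82% pooled, so that the highest cluster was 3.31 times the lowest by the means and 4.27 times by the pooled shares.

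Cluster 1 was the highest cluster in 4 of 6 samples and the next highest in SCM replicates 1 and 3. Above it lay cluster 13 in SCM replicate 1, at 12.2% from 1 nucleus, and cluster 4 in SCM replicate 3, at 11.5% from 276 nuclei. Its shares were 20.7%, 8.35% and 16.4% in QCM and 9.31%, 5.08% and 11.2% in SCM, or 1.37 to 2.12 times the share of the whole sample (1.37 to 1.84 times without SCM replicate 1). Cluster 14, the lowest in 5 of 6 samples, held 92 nuclei with a median of 39432.5 UMIs, but only 1 of them in QCM replicate 3 and 7 each in SCM replicates 1 and 3. As a mean over nuclei thinned to 1000 UMIs, cluster 1 had 13.8% and cluster 14 had 3.04%, again the highest and the lowest. Thinning leaves the expected share of a nucleus unaltered, so this order is not corrected for depth. The widest Wilson 95% interval of a pooled cluster share spanned 0.196 points, for counting error only.

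**Figure D4:**
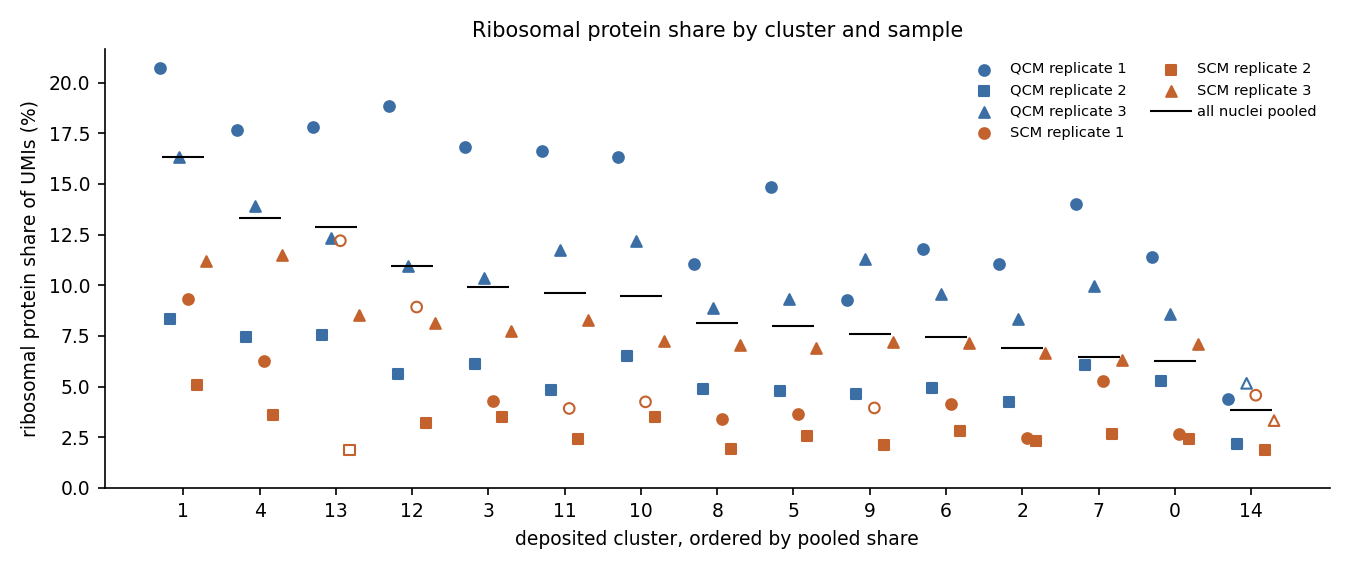
Share of UMIs on the 81 genes in each deposited cluster, by sample, in percent, with clusters ordered by their pooled share (black lines) and open symbols for samples with under 10 nuclei of a cluster. Cluster 1 leads at 16.3% pooled and cluster 14 is last at 3.82%, and QCM replicate 2 lies below SCM replicate 3 in cluster 1, at 8.35% and 11.2%.

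Cluster shares moved with depth and mitochondrial share. Over the 15 clusters the pooled share had a Pearson correlation of 0.85 with the median mitochondrial share, which was 4.07% in cluster 1, 3.92% in cluster 4 and 0.626% in cluster 14. It had a Spearman correlation of -0.81 with the median UMIs per nucleus. With each sample at equal weight in share, mitochondrial share and UMIs, these were 0.95 and -0.80. These are descriptions over clusters that share the same 6 libraries, and the part of either measure in the order of clusters was not tested.

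Within clusters the media were compared again on summed counts, in 13 clusters with enough nuclei (clusters 0 to 12, of which clusters 9 to 12 had 3 QCM and 2 SCM samples). edgeR called 0 of 1040 pairs of a member and a cluster at an adjusted p under 0.05, beside 0% of all gene and cluster pairs, and gave 304 pairs, or 29.2%, at an unadjusted p under 0.05, beside 5.76%. Estimates were lower in SCM in 1038 of the 1040 pairs, against 50.7% of all pairs, and the exceptions were Rpl7l1 in clusters 10 and 11. The median log2 ratio of the members ran from -0.87 in cluster 9 to -1.40 in cluster 10. The share of the SCM samples overlapped that of the QCM samples in all 15 clusters, and the clusters draw on the same samples.

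Calls within clusters depended on the settings. DESeq2 called 4 pairs, beside 0.0507% of all pairs, which were Rpl9, Rps12, Rps18 and Rps29 in cluster 7, all lower in SCM and named after their values were seen. With no low count filter edgeR called 315 of 1052 pairs, beside 0.984% of all pairs. Without QCM replicate 2 it called 2 pairs, Rpl15 and Rpl27a in cluster 10, beside 0.0238% of all pairs. At the level of whole samples, 0 members were called under any of the 15 alternatives tried, beside 0.131% of all genes with DESeq2. The share of all genes called in the other alternatives is not given here.

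Most members followed the same pattern over clusters. Pooled over samples, 79 of the 81 had their highest CPM in cluster 1, with Rpl3l highest in cluster 4 and Rpl7l1 in cluster 13, and 75 were lowest in cluster 14. With each sample at equal weight, 59 were highest in cluster 1 and 77 lowest in cluster 14. In pooled values, the correlation with the summed share over clusters was at least 0.9 for 76 members. Rplp1 had 5333 pooled CPM in cluster 1, 4310 in cluster 4, 2080 in cluster 0 and 1050.3 in cluster 14. Rpl7l1 was nearly level, with 83.0, 82.1, 77.4 and 75.4 CPM in the same clusters.

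The makeup of the ribosomal protein UMIs differed less between clusters, pooled over samples, than between samples. The SD of the log2 share over samples exceeded that over clusters in 80 of the 80 members compared, with medians of 0.302 and 0.0861. The smallest ratio of these SDs was 1.66. A pooled cluster averages over its samples, so differences between samples enter the SD over clusters less, and the SDs are not like measures. SCM replicate 1 enters the SD over samples in full, and values without it are not given. The 5 members that varied most between clusters, Rpl7l1, Rpl35, Rpl15, Rpl27a and Rps6, are also among those that varied most between samples. The clusters hold unequal parts of the samples, so the 5 were compared between clusters 0 and 1 inside each sample. The log2 ratio of cluster 0 to cluster 1 lay between -0.06 and 0.04 for Rpl35, between -0.11 and 0.16 for Rpl15 and between -0.03 and 0.21 for Rps6, on both sides of 0. It was above 0 in 6 of 6 samples for Rpl27a (0.05 to 0.31) and for Rpl7l1 (0.57 to 2.07). Of these 5, Rpl7l1 thus had the widest gap between both clusters inside samples. The gap is in a share of the ribosomal protein UMIs, which were a smaller part of all UMIs in cluster 0 than in cluster 1. The pooled CPM of Rpl7l1 were 77.4 in cluster 0, 75.4 in cluster 14 and 83.0 in cluster 1, so its level was not raised in clusters 0 and 14. In SCM replicate 1 its share in cluster 0 rested on 9 UMIs, and without that sample the ranges were 0.57 to 1.21 for Rpl7l1 and -0.11 to 0.067 for Rpl15. The log2 ratio of cluster 14 to cluster 1 was 1.07 to 2.08 for Rpl7l1, above 0 in the 5 samples with a value, and above 0 in 6 of 6 samples for Rpl27a (0.038 to 1.23). It lay on both sides of 0 for Rpl15 (-0.09 to 0.55), Rps6 (-0.21 to 0.43) and Rpl35 (-0.38 to 0.93). The low end for Rps6 came from SCM replicate 1, and without that sample its range was 0.039 to 0.43. In QCM replicate 3, cluster 14 was 1 nucleus, with 0 UMIs for Rpl7l1, Rpl15 and Rps6 and 2 each for Rpl27a and Rpl35.

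Inside samples, the share also varied with the depth of a nucleus. With nuclei of each sample in 4 groups of equal size by UMIs, the share went from 9.64% in the shallowest to 3.73% in the deepest group of QCM replicate 2 and from 17.9% to 8.30% in QCM replicate 3. In SCM it went from 14.97% to 3.71%, from 4.57% to 2.35% and from 11.9% to 6.21% in replicates 1, 2 and 3. QCM replicate 1 was flat at first, with 19.7%, 20.8% and 18.6%, and then had 10.2% in the deepest group. Over the nuclei of a sample, the Spearman correlation of the ribosomal protein share with the mitochondrial share was 0.58 to 0.74, and with the UMIs -0.83 to -0.48 (0.58 to 0.73 and -0.81 to -0.48 without SCM replicate 1). These are descriptions within a library, in which the shares and the total are not separate measures. They do not describe the differences between samples. The median UMIs per nucleus were 8260, 2301.5 and 1578 in QCM and 3156.5, 2547.5 and 1966 in SCM, in order of replicate. QCM replicate 1 thus had both the highest median and the highest share.

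**Figure D5:**
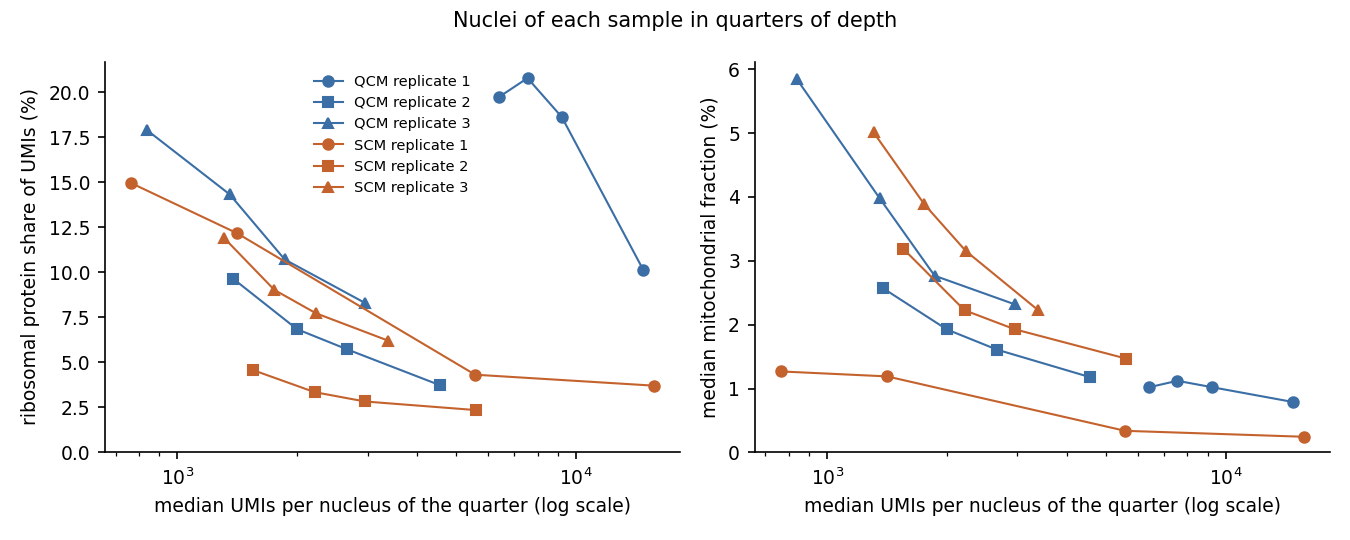
Ribosomal protein share of UMIs (left) and median mitochondrial share (right), in percent, in 4 groups of equal size of the nuclei of each sample, against the median UMIs per nucleus of the group on a log axis. The share is lower in the deepest than in the shallowest group in all 6 samples, for example 17.9% and 8.30% in QCM replicate 3.

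Lists of related genes were read beside the members, with 0 genes called in each by edgeR. Their counts stand beside 51.4% of all genes with lower estimates in SCM, 4.55% at an unadjusted p under 0.05 in edgeR, and 2.09% lower and 4.99% higher without overlap. Of 37 translation factors, 36 had lower estimates in SCM, 4 of the 37 reached an unadjusted p under 0.05 in edgeR, and the median log2 ratio was -0.60. It was -0.21 without QCM replicate 1 and -0.14 in replicates 2 and 3 alone. Without overlap, 0 were lower and 0 higher. Eef1a1, which brings tRNA to the ribosome, had 3440, 1696 and 2290 CPM in QCM and 1387, 1218 and 2077 CPM in SCM, at -0.87 ± 0.43 (SE). Tpt1 and Eef1b2, whose mRNAs also carry a 5′ TOP tract, had -1.19 ± 0.62 and -1.19 ± 0.46 (SE). The ribosome biogenesis factors were spread around 0, with 29 of 44 lower, a median of -0.14 and, in edgeR, 2 under an unadjusted p of 0.05. Of these 44, 1 was lower and 3 were higher without overlap. The nucleolar proteins Npm1 and Ncl had -0.89 ± 0.47 and -0.48 ± 0.34 (SE), and Taf1d, a subunit of the RNA polymerase I selectivity factor, had 0.18 ± 0.24 (SE). The median of this list turned to 0.052 without QCM replicate 1. For the members it kept its sign.

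The proteins of the mitochondrial ribosome, which is built apart from the cytosolic one, had lower estimates in SCM for 75 of 77 genes, with a median of -0.67, which was -0.23 without QCM replicate 1 and -0.22 in replicates 2 and 3 alone. In edgeR 17 of the 77 had an unadjusted p under 0.05, and 6 were lower and 0 higher without overlap. Mrpl52 and Mrpl12 had -0.93 ± 0.46 and -0.96 ± 0.42 (SE), while Mrps28 had -0.15 ± 0.18 (SE). A list of other short, abundant mRNAs had 25 of 28 lower and a median of -0.95 (-0.38 without QCM replicate 1 and -0.32 in replicates 2 and 3 alone), and in edgeR 5 of the 28 had an unadjusted p under 0.05. Without overlap 1 was lower and 2 were higher. In it Dbi had -1.36 ± 0.57, Ppia -1.24 ± 0.46 and Krt8 -0.17 ± 0.37 (SE), and Krt8 turned to 0.26 without QCM replicate 1. Lower estimates in SCM were thus found in most genes of these lists too, and their medians, like that of the members, were nearer to 0 without QCM replicate 1.

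RNAs that stay in the nucleus lay on the other side. Of 6 tested, 5 had higher estimates in SCM and the median was 0.25 (0.58 with voom and quantile normalization), and in edgeR 1 had an unadjusted p under 0.05. Without overlap 2 were higher and 0 lower. Malat1 had 14049, 20551 and 13177 CPM in QCM and 24875, 24711 and 17042 CPM in SCM, at 0.32 ± 0.41 (SE), with QCM replicate 2 above SCM replicate 3. Neat1 had 0.29 ± 0.24 and Kcnq1ot1 0.21 ± 0.31 (SE), and Kcnq1ot1 turned to -0.17 without SCM replicate 1. The part of carried-over cytoplasm in the ribosomal protein values was not tested.

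The genes most like the members over the 15 clusters were sought among 7899 genes by the correlation of their log2 CPM with the log2 share, both pooled over samples. The 10 closest were Atp5j2, Atp5g1, Uqcr10, Rack1, Uqcrq, Eef1b2, Mif, Atp5g3, Uqcrh and Tomm7, with r from 0.996 to 0.993. At the other end, named after their values were seen, were genes such as Usp53 (-0.970), Pdpk1, Vti1a and Arih1 (-0.956). Atp5j2 had 663 CPM in cluster 1, 262 in cluster 0 and 174 in cluster 14, and Usp53 had 61.8, 109 and 143 CPM. These are descriptions over clusters, which share libraries and depth and which the samples fill unequally. Values with each sample at equal weight are not given for these genes.

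Ribosomal protein genes have many processed copies in the genome, and reads may be split between them. For 56 members, 181 annotated pseudogenes were in the files, and together they held UMIs equal to 0.620% of the members' own. In 0 members did they reach 10%, and the highest values were 7.43% for Rpl39 and 6.19% for Rpl10a. Reads that match a member and a copy equally well may be counted for neither, so these values do not bound the reads lost. In addition, 46 members overlap another annotated gene, 17 of them a protein-coding gene and 28 a small nucleolar RNA that they host. The overlapping gene had more UMIs than the member in 2 cases, which were the ones given above for Rpl13 and Rpl7l1.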

How the data were processed

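Single nuclei of mouse jejunal organoids grown in QCM or SCM (3 samples each) were analysed. The authors counted reads per gene on mm10, with Cell Ranger 2.1.1 per the submitters' processing notes, and removed nuclei that were outliers in mitochondrial fraction, reads or features before deposit. The deposited matrices hold UMI counts per gene and nucleus, and the deposited table of nuclei holds cluster numbers and the mitochondrial share as a fraction. Deposited log values were not used. Per the methods, mitochondrial share and totals were regressed out before principal components were integrated by library with Harmony, and Leiden clusters were then called.

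Of 31319 genes, 31258 were matched to a symbol of GENCODE M21. Nuclei are not replicates, so all nuclei of a sample were added up, and the nuclei of each of its clusters where it had at least 10. The quasi-likelihood test of edgeR 4.0.16 (limma 3.58.1, R 4.3.3) was run on all genes with TMM scaling, filterByExpr at a minimum count of 10 and Benjamini-Hochberg adjustment at 0.05. The SE of an edgeR log2 ratio was derived as its absolute value over the square root of the F statistic of the test. DESeq2 1.42.0 was an alternative. No doublet caller was run; leaving out the 6% of nuclei with most UMIs was an alternative. Tables were made in Python 3.11.15 with numpy 2.4.6, pandas 2.3.3 and scipy 1.17.1. Shares have Wilson 95% intervals, which cover counting error only. On simulated counts for all nuclei, over 19356 genes, the test recovered 2.15% of 93 genes changed 2-fold and 54.6% of 97 changed 4-fold, with 8 false calls in all.

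The members and lists were chosen with earlier results of these data known. The genes named were the 5 members with the highest and the 5 with the lowest mean CPM, the 5 with the highest and the 5 with the lowest log2 ratio, the 5 whose share varied most between clusters, paralog pairs, 4 ribosomal protein genes outside the rule, 3 of each related list and the 10 genes most like the members. Members named beside a small count or an extreme value were picked after these were seen. A few genes that the rule names are not reported here, and relatives that are not named were not analysed here. The alternatives were other scalings and filters, voom with quantile normalization, a replicate block and leaving out each sample. Leaving out the shared barcodes, replicates 2 and 3 alone and the thinned share were added after seeing the data.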

Additional observations from a re-analysis of the deposited data

How the results depend on the processing

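Over all nuclei, 0 members were called under each of 15 alternatives, and the smallest adjusted p was 0.359 (DESeq2, which called 0.131% of all genes). The share of all genes called in the other alternatives is not given here. At an unadjusted p under 0.05 the alternatives gave 0 to 74 members (edgeR gave 74 with the replicate block, beside 6.19% of all genes). The median log2 ratio of the members ran from -1.80 to -0.62, and 388 of 390 values of the 26 named members under the alternatives were negative. It was -0.76 with voom, -1.05 by library size alone, which moved the median of all genes to 0.14, and -0.62 in replicates 2 and 3 alone. Leaving out each sample gave -8.10 to -3.17 points for the share, 0.0362 to 0.0974 for the subunit ratio, -1.80 to -0.74 for the median, 11.2% to 17.3% for cluster 1, 37 to 41 of 44 named genes lower (40 with all samples) and 1 to 69 members without overlap, which was 3 in replicates 2 and 3 alone (beside 9.99% of all genes).

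Within clusters, the calls were 0 as reported, 4 with DESeq2, 315 with no low count filter, 46 with the replicate block (39 of them in cluster 9 and 7 in cluster 11, beside 0.191% of all pairs), and 0 to 2 with a sample left out. The replicate numbers were not shown to pair the samples. Deviations from the group means correlated by 0.36, 0.46 and -0.09 for numbers 1, 2 and 3, and by -0.46 to 0.16 between unlike numbers. Pairing was thus neither shown nor excluded. The cause of the differences in calls between settings was not tested.

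Some estimates changed sign. The median of ribosome biogenesis was 0.025 when scaled by library size alone and 0.065 in replicates 2 and 3 alone, and ran from -0.26 (without QCM replicate 3) to 0.052 (without QCM replicate 1) with a sample left out. In the same way, with the lowest value when SCM replicate 1 was left out and the highest when QCM replicate 1 was, Rps6 ran from -1.07 to 0.013 and Rpl7 from -1.31 to 0.053. Krt8 ran from -0.45 to 0.26, Taf1d from -0.0038 to 0.38 and Kcnq1ot1 from -0.17 to 0.36. Krt8 had 0.44 with voom, 0.033 by library size alone and 0.39 in replicates 2 and 3 alone, where Ncl had 0.082 and Kcnq1ot1 -0.096. Mrps28 had 0.019 by library size alone. The depth of SCM replicate 1, with 430 nuclei, limits its values in the small clusters.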
